A study of Mus musculus with 6 samples.

Results

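The insulin-like growth factor (IGF) axis was followed here through 10 genes, taken by name: the ligands *Igf1* and *Igf2*, the receptors *Igf1r* and *Igf2r*, and the binding proteins *Igfbp1* to *Igfbp6*. All 10 were on the array, with 14 of its 55681 probes. In all, 26582 probes were matched to 20145 genes of a gene table. The uteri of 3 Sox17f/f and 3 Sox17ed/ed mice were taken on gestation day (GD) 3.5, and the RNA of each whole uterus was read in 1 colour on an Agilent G3 Mouse GE array of its own. Both genotypes carry the floxed *Sox17* allele. Sox17ed/ed mice (LtfiCre/+ Sox17 f/f) also carry iCre, a recombinase driven by the lactoferrin gene *Ltf*, which acts in the uterine epithelium from puberty onward and leaves *Sox17* in other uterine cells, the endothelium among them. The Sox17f/f littermates carry no recombinase, and the sample characteristics call them WT. Females were mated at 8 to 10 weeks of age and the embryos were flushed from the horns, so the RNA is that of the uterus alone. The study asked which uterine genes change when the epithelium lacks SOX17 shortly before the embryo attaches.

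IGF-I and IGF-II are secreted peptides that act through the tyrosine kinase receptor IGF1R, while the receptor encoded by *Igf2r* takes IGF-II up for degradation. Secreted binding proteins hold the ligands outside the cell and lengthen or block their action, and proteases release the ligands again. In the rodent uterus IGF-I is known as a stromal product that rises with estrogen and acts on the epithelium, and several binding protein genes respond to steroid hormones or mark the decidua.

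Of these genes *Igfbp5* changed, rising 2.88-fold in Sox17ed/ed uteri. *Igf1*, *Igf1r*, *Igf2r*, *Igfbp4* and *Igfbp6* differed by less than the thresholds, with 95% intervals that all lay within 1.4-fold in both directions. *Igfbp2* was higher on every Sox17ed/ed array but just missed the p threshold. *Igf2* and *Igfbp3* did not pass, and their intervals did not lie within 1.4-fold. The 95% interval of the fold was 0.443 to 1.45 for *Igf2* and 0.654 to 1.05 for *Igfbp3*. That of *Igf2* leaves room for a change past 1.4-fold in either direction, and that of *Igfbp3* for a decrease of that size. *Igfbp1* was well above background on 1 array only and was not tested.

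*Igfbp5* and *Igfbp2*, the tested members with the largest differences, are neighbours on chromosome 1, with no protein-coding gene between them in the RefSeq gene table. The same holds for *Igfbp1*, which was not tested, and *Igfbp3*, which did not pass, on chromosome 11. The 250 bases before a RefSeq start of *Igfbp5* and of *Igfbp2* are shown as the sequence next to that start. Whether they regulate the gene was not tested. *Igfbp2* has another RefSeq start, whose sequence is not shown. The build is GRCm38.p6, and each sequence runs 5′ to 3′ on the strand of its gene.
Igfbp5, chr1:72874866-72875115, minus strand: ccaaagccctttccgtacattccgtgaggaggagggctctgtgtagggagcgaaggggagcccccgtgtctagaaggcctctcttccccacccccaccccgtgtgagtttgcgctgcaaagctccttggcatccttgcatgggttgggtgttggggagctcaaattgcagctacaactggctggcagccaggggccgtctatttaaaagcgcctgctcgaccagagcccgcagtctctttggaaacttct
Igfbp2, chr1:72824230-72824479, plus strand: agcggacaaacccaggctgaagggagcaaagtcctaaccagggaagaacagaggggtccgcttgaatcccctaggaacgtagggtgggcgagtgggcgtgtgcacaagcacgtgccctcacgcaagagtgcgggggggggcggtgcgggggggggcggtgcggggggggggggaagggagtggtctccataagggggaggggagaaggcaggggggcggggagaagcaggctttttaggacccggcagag
RefSeq promoter windows, which reach from 250 bases before to 50 bases after a start, were searched on both strands for the full palindromic estrogen response element and for the SOX core CATTGT. All 10 members have a window, 14 windows in all. The full estrogen response element was in 0 of these 14 and in 0.07% of all 32851 windows. The SOX core was in 2 of the 14, a window of *Igf1* and a window of *Igf2*, and in 12.6% of all windows. Counted from the start, the *Igf2* match began at base -56 and the *Igf1* match, on the opposite strand, at base 1. No window of *Igfbp5* or *Igfbp2* held either set of letters. A match is a run of letters and not a binding site, and its absence here says nothing about sequence outside the window.

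The scale used below is the normalized log2 signal of a probe: the processed signal on a log2 scale, quantile normalized between the 6 arrays. A difference of 1 on it is a doubling. Levels of different probes are not comparable, since each probe has its own brightness. Between 60.7% and 65.7% of the spots were well above background on the Sox17f/f arrays and between 56.8% and 59.4% on the Sox17ed/ed arrays, and arrays of a genotype correlated at 0.9903 to 0.9952. *Sox17* itself was 12.17 ± 0.09 (SD, n = 3) in Sox17f/f and 9.72 ± 0.11 (SD, n = 3) in Sox17ed/ed uteri, so that the log2 fold change was -2.45, with a standard error (SE) of 0.09 (limma adjusted p = 2.6e-05). The 6 arrays lay on 1 slide, with the Sox17f/f arrays in 1 line of it and the Sox17ed/ed arrays in the other, so slide line and genotype cannot be told apart. The thresholds were those of the study's methods, an unadjusted p under 0.01 and a fold change of at least 1.4, which is 0.485 on the log2 scale. Of 14790 genes tested, 1850 (12.5%) passed. Of the 9 members tested, 1 passed, the higher *Igfbp5*, where 6.02% of all genes passed as higher and 6.48% as lower. The median log2 fold change was 0.07 over the 9 members and -0.00193 over all genes. The median SD between arrays of a genotype was 0.11.

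**Figure D1:**
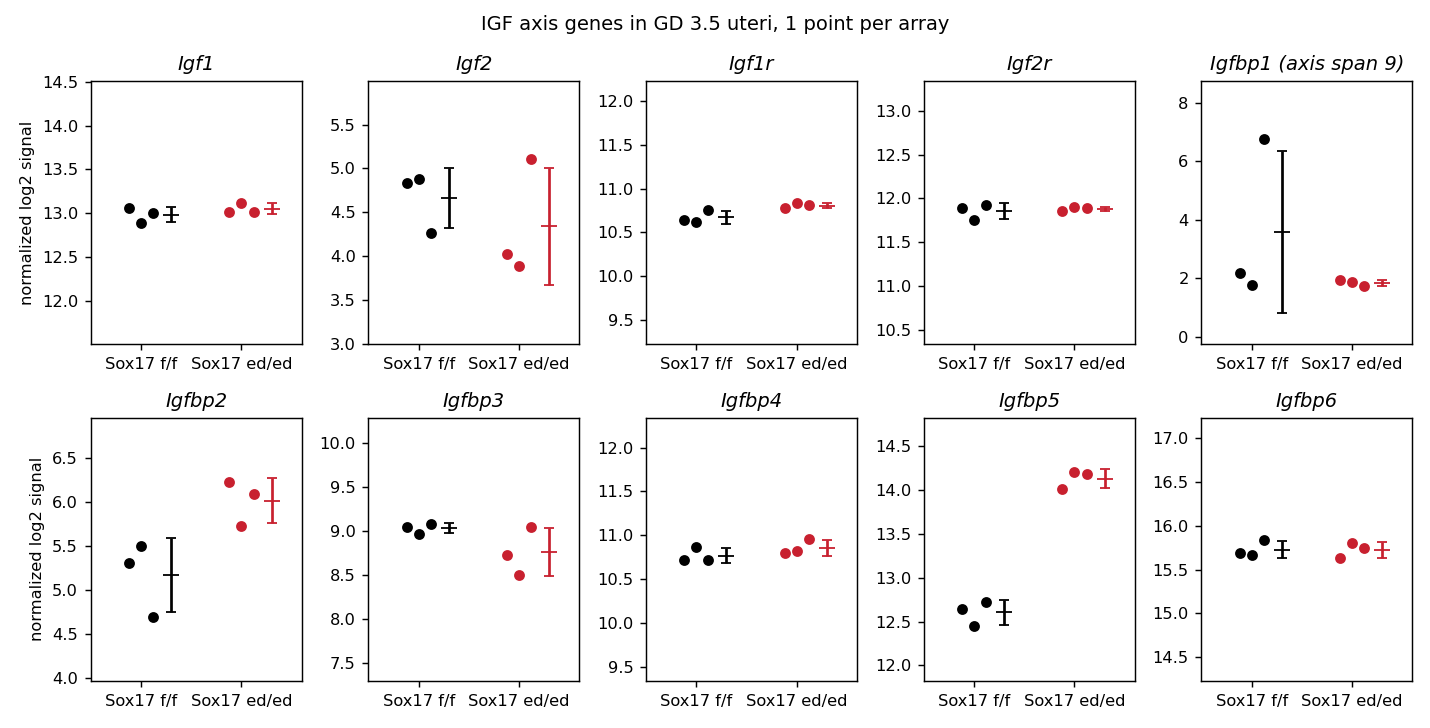
Normalized log2 signal of the 10 IGF axis genes on each array (vertical axis), Sox17f/f in black and Sox17ed/ed in red, with the mean ± SD of 3 arrays beside the points. Every panel but that of Igfbp1 spans the same range of log2 signal. The Sox17ed/ed points of Igfbp5 lie at 14.01 to 14.20, above all Sox17f/f points, while those of Igf1, Igf2, Igf2r, Igfbp3, Igfbp4 and Igfbp6 overlap with them. The Igfbp1 points other than that at 6.77 were not well above background.

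The ligands did not pass the thresholds in limma, and neither had an unadjusted p under 0.05. *Igf1*, the uterine growth factor of the stroma, had 4 tested probes, and the brightest read 13.06, 12.89 and 13.00 on the Sox17f/f arrays and 13.02, 13.12 and 13.01 on the Sox17ed/ed arrays. The groups overlapped, and all 6 arrays lay close together. The log2 fold change was 0.07 (SE 0.07, 95% interval -0.11 to 0.24, limma adjusted p = 0.571), so that a change of more than 1.18-fold lay outside the interval. The sign was not settled: it was -0.01 when arrays were shifted by their 75th percentile, and -0.02 with the mean of the 4 probes.

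The other *Igf1* probes share the accession of the brightest. In the fit of single probes none of the 4 further probes of the members passed in limma, where 9.89% of all probes did. An unadjusted p under 0.05 was reached by 1 of the 4. That share was 33.9% over all genes in the fit of genes, and it was not counted over all probes. In the fit of single probes the log2 fold change was 0.04 for A_55_P2085974, 0.01 for A_55_P2085984 and -0.20 for A_55_P2031636 (limma adjusted p = 0.271). The last of these read 10.28, 10.20 and 10.18 on the Sox17f/f arrays and 10.02, 10.18 and 9.87 on the Sox17ed/ed arrays, with its highest Sox17ed/ed array just above the lowest Sox17f/f array. The change of the brightest probe exceeded that of A_55_P2031636 by 0.26 (95% interval 0.07 to 0.46, exact permutation test, two-sided, p = 0.1). That is the smallest p that 3 arrays against 3 allow, and adjusted over the 4 pairs of probes compared among the members it was 0.267. Which transcripts of *Igf1* each probe reads was not analysed here.

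*Igf2*, the fetal growth factor whose gene is imprinted, lay near background in these uteri. Its probe read 4.84, 4.88 and 4.26 on the Sox17f/f arrays and 4.03, 3.89 and 5.11 on the Sox17ed/ed arrays, and it was well above background on all 3 of the former and on 1 of the latter. The highest and the lowest of the 6 values were both of Sox17ed/ed uteri. The log2 fold change was -0.32 (SE 0.35, limma adjusted p = 0.571). Its 95% interval from -1.17 to 0.53 leaves room for a 2.25-fold decrease or a 1.45-fold increase. Without Sox17ed/ed replicate 3 the value was -0.69 (limma adjusted p = 0.0985).

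Neither receptor passed in limma or had an unadjusted p under 0.05. *Igf1r*, which encodes the signaling receptor of both ligands, read 10.64, 10.62 and 10.75 on the Sox17f/f arrays and 10.77, 10.83 and 10.81 on the Sox17ed/ed arrays. Every Sox17ed/ed array thus lay above every Sox17f/f array, as was so, in either direction, for 3 of the 9 members and 40.5% of all genes tested. The difference was small, with a log2 fold change of 0.13 (SE 0.07, 95% interval -0.03 to 0.29, limma adjusted p = 0.219). After normexp background correction it was 0.25 (limma adjusted p = 0.0582).

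*Igf2r*, the clearance receptor for IGF-II and carrier of lysosomal enzymes, was read by 1 probe printed in 10 spots. It gave 11.89, 11.75 and 11.92 in Sox17f/f and 11.86, 11.90 and 11.89 in Sox17ed/ed uteri. The Sox17ed/ed values lay inside the range of the Sox17f/f values. The log2 fold change was 0.03 (SE 0.07, 95% interval -0.14 to 0.20, limma adjusted p = 0.834), and its sign turned to -0.02 with the 75th percentile shift.

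**Figure D2:**
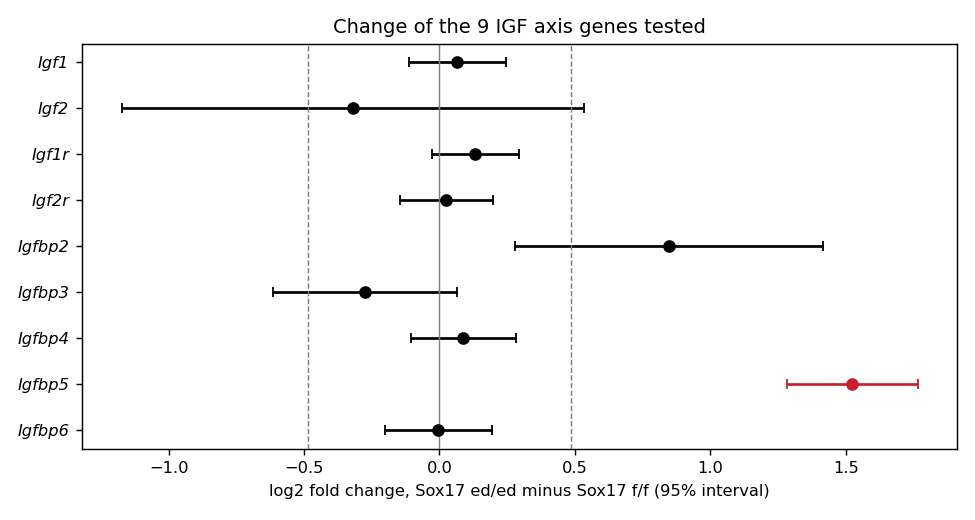
Log2 fold change of the 9 IGF axis genes tested, Sox17ed/ed minus Sox17f/f (horizontal axis), with the 95% interval of the limma fit. Dashed lines mark 1.4-fold in both directions and red marks the gene past both thresholds. The interval of Igfbp5 runs from 1.28 to 1.77, those of Igf1, Igf1r, Igf2r, Igfbp4 and Igfbp6 lie between the dashed lines, and those of Igf2, Igfbp2 and Igfbp3 cross them.

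Among the binding proteins *Igfbp5* rose. It encodes a binding protein that adheres to the extracellular matrix, and it is counted among the estrogen-responsive genes of the uterus. The probe read 12.65, 12.45 and 12.72 on the Sox17f/f arrays and 14.01, 14.20 and 14.18 on the Sox17ed/ed arrays. The lowest Sox17ed/ed array lay above the highest Sox17f/f array by far more than the spread within either genotype. The log2 fold change was 1.52 (SE 0.10, limma adjusted p = 0.000229), and the 95% interval of the fold was 2.44 to 3.40. By size, 3.41% of all genes tested changed as much in either direction, and *Igfbp5* ranked 261 from the highest log2 fold change. When single arrays were left out the log2 fold change stayed between 1.45 and 1.59, and over all 14 alternatives the adjusted p lay between 7.67e-07 and 0.00399.

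*Igfbp2*, a binding protein made by many epithelia and during development, lay low on the array. The brighter probe over all arrays read 5.31, 5.50 and 4.70 in Sox17f/f and 6.23, 5.73 and 6.09 in Sox17ed/ed uteri. The groups did not overlap, although Sox17f/f replicate 2 and Sox17ed/ed replicate 2 lay close. The log2 fold change was 0.85 (SE 0.23, 95% interval 0.28 to 1.42), with a limma p of 0.0103 (adjusted p = 0.0529) against the threshold of 0.01.

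The second *Igfbp2* probe gave 0.56 in the fit of single probes (limma adjusted p = 0.149), from 5.11, 5.72 and 4.95 in Sox17f/f to 5.92, 5.78 and 5.77 in Sox17ed/ed uteri. Its groups did not overlap either. The changes of the 2 probes differed by 0.29 (95% interval -0.25 to 0.82, exact permutation test, two-sided, p = 0.2, adjusted 0.267). The call for *Igfbp2* depends on the processing: it passed with the 75th percentile shift (0.82, limma adjusted p = 0.0187), when probes had to be above background on every array (adjusted p = 0.0402) and with an intensity trend in the variance (adjusted p = 0.0419). After normexp background correction its log2 fold change shrank to 0.39, under the fold threshold. It also passed without Sox17f/f replicate 2, at 1.004, and without Sox17ed/ed replicate 2, at 0.98.

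**Figure D3:**
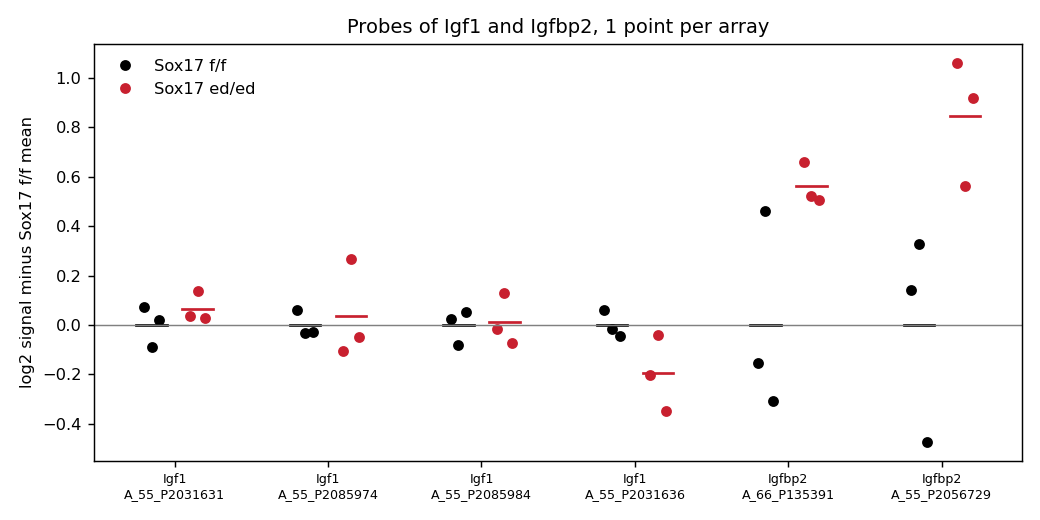
Log2 signal of each probe of Igf1 and Igfbp2 on each array, less the mean of the Sox17f/f arrays for that probe (vertical axis), Sox17f/f in black and Sox17ed/ed in red, with a bar at each mean. All Igf1 probes but A_55_P2031636 have Sox17ed/ed means within 0.07 of the Sox17f/f mean and that probe lies at -0.20, while both Igfbp2 probes lie higher in Sox17ed/ed uteri, by 0.56 and 0.85.

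*Igfbp3*, the main carrier of IGFs in blood, did not pass. It read 9.05, 8.97 and 9.08 in Sox17f/f and 8.73, 8.50 and 9.04 in Sox17ed/ed uteri. Sox17ed/ed replicates 1 and 2 lay below all Sox17f/f arrays, and replicate 3 lay among them. The log2 fold change was -0.27 (SE 0.14, 95% interval -0.61 to 0.07, limma adjusted p = 0.228). Without Sox17ed/ed replicate 3 it was -0.42 (adjusted p = 0.0561), under the fold threshold.

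*Igfbp4*, a binding protein that holds IGFs back until the protease PAPP-A cuts it, read 10.72, 10.87 and 10.72 in Sox17f/f and 10.79, 10.82 and 10.96 in Sox17ed/ed uteri. The groups overlapped, with a log2 fold change of 0.09 (SE 0.08, 95% interval -0.11 to 0.28, limma adjusted p = 0.489). *Igfbp6*, a binding protein that prefers IGF-II, read 15.69, 15.66 and 15.83 in Sox17f/f and 15.63, 15.80 and 15.74 in Sox17ed/ed uteri. Both means lay within the spread of either genotype, and the 95% interval of the log2 fold change ran from -0.20 to 0.19 (limma adjusted p = 0.979).

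*Igfbp1*, a marker of decidual cells in primates and of the liver, was well above background on a single array, Sox17f/f replicate 3, at 6.77. The other arrays read 2.20 and 1.77 in Sox17f/f and 1.94, 1.87 and 1.72 in Sox17ed/ed uteri, none of them well above background. The gap of 4.58 to the next array rests on 1 spot. On the same array 2722 probes were well above background that were not so on any other array, against 388 to 610 on the other arrays. Of these 2722 probes, 29 had a gap of at least 4, against 16 to 24 on the other Sox17f/f arrays and 57 to 74 on the Sox17ed/ed arrays. Across the arrays 142 such probes had a gap at least as large as that of *Igfbp1*, and what part this array has in its value was not tested.

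Of 55 other genes of IGF and insulin signaling, taken from 6 lists, 50 were tested and 7 passed, against 12.5% of all genes tested. Of the 7, 4 were higher and 3 lower in Sox17ed/ed uteri, against 6.02% and 6.48% of all genes, and these shares stand behind each count by list below. A limma adjusted p under 0.05 was reached by 14, as by 19% of all genes tested. Of these 14, 8 were higher and 6 lower, where 8.82% and 10.1% of all genes were, and the median log2 fold change of the 50 was 0.02.

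Among relatives and carriers of the binding proteins, 2 of 4 genes tested rose. *Esm1*, which encodes a proteoglycan secreted by endothelial cells, read 7.23, 7.55 and 7.44 in Sox17f/f and 8.13, 8.12 and 8.16 in Sox17ed/ed uteri. Its groups lay apart, with a log2 fold change of 0.73 (SE 0.09, limma adjusted p = 0.00363). Normexp background correction brought it to 0.484, just under the fold threshold. *Htra1*, a secreted serine protease with an IGF-binding domain, rose by 0.53 (SE 0.12, limma adjusted p = 0.0294), from 14.15, 14.05 and 14.44 to 14.68, 14.68 and 14.87. It lost its call with the 75th percentile shift, at 0.46, and when any array but Sox17f/f replicate 3 was left out. *Igfals*, the acid-labile subunit of the circulating complex, was at background throughout, and *Igfbpl1* was well above it only on Sox17ed/ed replicate 3.

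Of 6 proteases that release IGFs from the binding proteins, with their inhibitors, 1 passed. It was *Pappa*, which encodes the protease PAPP-A, with 6.98, 7.30 and 7.28 in Sox17f/f and 7.66, 7.63 and 7.80 in Sox17ed/ed uteri. Every Sox17ed/ed array was higher, and the log2 fold change was 0.51 (SE 0.11, limma adjusted p = 0.0227). Normexp background correction brought it to 0.43, below the fold threshold, as did leaving out Sox17f/f replicate 1, at 0.41. Without Sox17ed/ed replicate 3 it was 0.46 (adjusted p = 0.0734). The protease gene *Adam12* had a log2 fold change of 0.34 (limma adjusted p = 0.0191), under the fold threshold. The log2 fold changes of the 6 ran from 0.24 to 0.59, and 3 of the 6 had an unadjusted limma p under 0.05, against 33.9% of all genes. *Stc1*, an inhibitor of the protease, was well above background on 1 Sox17f/f and 2 Sox17ed/ed arrays and had its highest value, 6.70, on a Sox17f/f array (log2 fold change 0.51, SE 1.03).

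Of 12 tested genes for insulin, its receptors and the adaptors that both receptor types recruit, *Irs3* passed. It read 5.54, 5.55 and 5.67 in Sox17f/f and 6.31, 6.25 and 6.60 in Sox17ed/ed uteri, a log2 fold change of 0.80 (SE 0.11, limma adjusted p = 0.00461) that shrank to 0.42 after normexp background correction. *Irs1*, the adaptor best known downstream of IGF1R, differed by 0.28 (adjusted p = 0.0418), under the fold threshold. *Irs2* read 10.94, 10.75 and 10.49 in Sox17f/f and 9.78, 10.48 and 9.54 in Sox17ed/ed uteri, a log2 fold change of -0.79 (SE 0.26, limma adjusted p = 0.0823) that did not pass. The receptor gene *Insr* differed by -0.10 (adjusted p = 0.706). The related receptor gene *Insrr* differed by -0.45 (limma adjusted p = 0.0433), under the fold threshold. Of the mRNA-binding proteins named after IGF2, *Igf2bp2* alone was tested and did not pass (0.44, limma adjusted p = 0.0451).

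Of 7 genes of the growth hormone input, which drives *Igf1* in the liver, 2 fell, both of them feedback inhibitors of cytokine receptors. *Socs3* read 12.05, 12.11 and 11.85 in Sox17f/f and 10.01, 9.73 and 10.30 in Sox17ed/ed uteri. The groups lay far apart, with a log2 fold change of -1.99 (SE 0.16, limma adjusted p = 0.000485), and it was the only pathway gene past a fold change of 2. *Socs2*, the inhibitor of growth hormone receptor signaling, read 9.88, 9.96 and 9.82 in Sox17f/f and 9.28, 9.20 and 9.28 in Sox17ed/ed uteri. Its log2 fold change was -0.63 (SE 0.07, limma adjusted p = 0.00177), and its other 2 probes gave -0.58 and -0.44 without passing. *Stat5a* differed by 0.44 (adjusted p = 0.00486), under the fold threshold, and the receptor gene *Ghr* differed by -0.12 (adjusted p = 0.369).

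Of 20 genes of the PI3K-AKT-FOXO branch, the main route from IGF1R into the cell, *Foxo1* passed. This transcription factor, which AKT keeps out of the nucleus, read 12.52, 12.56 and 12.29 in Sox17f/f and 11.98, 11.76 and 11.93 in Sox17ed/ed uteri. All Sox17ed/ed arrays were lower, with a log2 fold change of -0.57 (SE 0.10, limma adjusted p = 0.0129), and its second probe gave -0.46, under the fold threshold. *Tsc1* (-0.37, adjusted p = 0.0204) and *Mtor* (-0.28, adjusted p = 0.0357) did not reach the fold threshold, and the median of the 20 was -0.05. *Akt1* differed by -0.01.

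**Figure D4:**
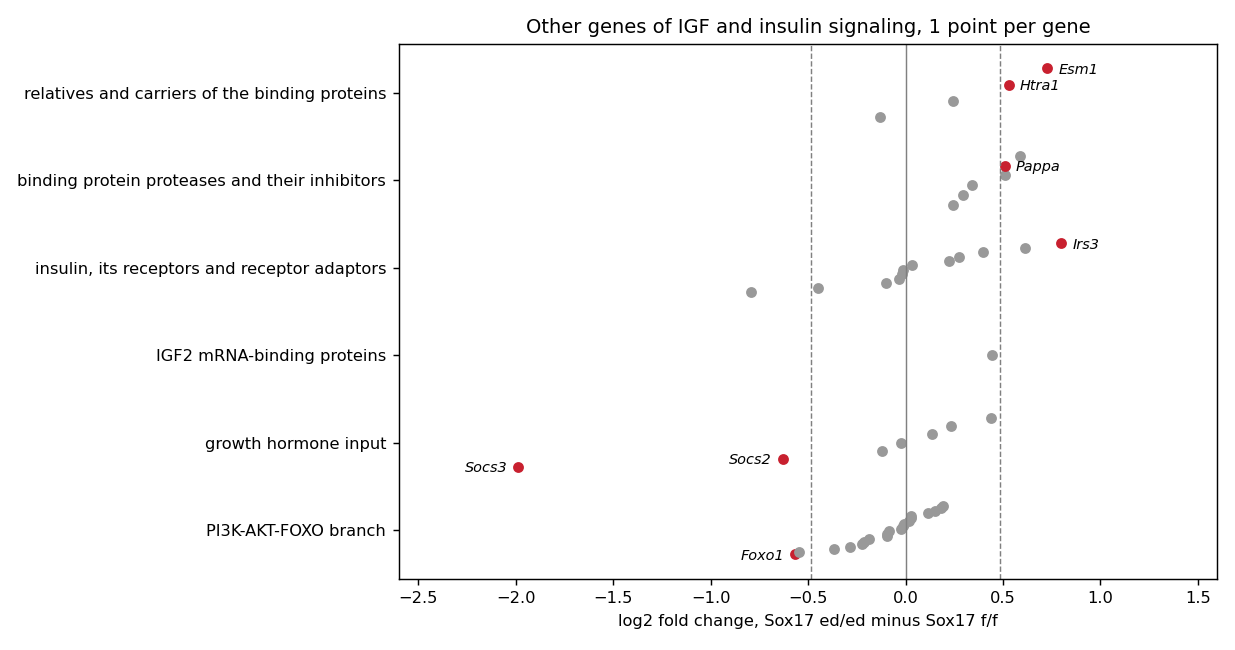
Log2 fold change, Sox17ed/ed minus Sox17f/f (horizontal axis), of the 50 other genes of IGF and insulin signaling that were tested, 1 point per gene, by list. Dashed lines mark 1.4-fold in both directions and red points are the 7 genes past both thresholds; grey points beyond a line had a p of 0.01 or more. Socs3 lies at -1.99, apart from the other genes.

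Whole uterus mixes epithelium, stroma, muscle and vessels, so that fewer cells of a type and less RNA per cell cannot be told apart. Lists of marker genes were read on the same arrays, where of all genes 6.02% passed as higher and 6.48% as lower, 33.9% had an unadjusted p under 0.05, 19% an adjusted p under 0.05 and 40.5% groups that did not overlap. The summed signals given below add the genes of a list off the log2 scale. The brightest probes weigh most in such a sum, so it does not measure the amount of a cell type. Of 10 epithelial markers, 4 were higher and 2 lower past the thresholds, among them *Krt19* (log2 fold change 2.10) and *Cldn3* (-1.16), and their summed signal was 54641 to 57320 in Sox17f/f and 53999 to 65820 in Sox17ed/ed uteri. None of 12 stromal markers passed, with sums of 504370 to 522918 and 442214 to 500648, although 5 had an unadjusted limma p under 0.05 and 2 an adjusted p under 0.05. The log2 fold changes of 6 of the 12 were below 0, with a median of 0.01. For smooth muscle, 1 of 10 was lower past the thresholds, with sums of 502566 to 555015 and 375922 to 453026. Of the 10, 5 had an unadjusted p under 0.05, 2 an adjusted p under 0.05 and 5 groups that did not overlap, and the median log2 fold change was -0.22.

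Of 8 endothelial markers, 1 was higher and 1 lower past the thresholds, and their sums were 14939 to 16069 in Sox17f/f and 13341 to 14047 in Sox17ed/ed uteri. The log2 fold changes of 7 of the 8 were below 0, with a median of -0.34, and 6 had an adjusted p under 0.05, 5 of them lower. For the mesothelium 1 of 5 was higher and 1 lower, with sums of 13332 to 14125 and 16113 to 16265. These sums were carried by *Wt1*, by far the brightest of the 5, with a log2 fold change of 0.26. *Upk3b* (1.56) and *Upk1b* (0.24) were higher too, while *Lrrn4* (-1.24) and *Msln* (-0.44) were lower. *Lrrn4*, the gene that passed as lower, was not well above background on any Sox17ed/ed array. It met the signal filter through the Sox17f/f arrays alone, so its call and the size of its fall are uncertain. Of the 5, 4 had an unadjusted p under 0.05, 3 an adjusted p under 0.05 and 4 groups that did not overlap. Of 9 cell cycle genes 0 passed in limma, 8 had an unadjusted p under 0.05, 8 had groups that did not overlap, and their sums were 19564 to 23809 and 27335 to 30328. The log2 fold changes of 0 of the 9 were below 0, with a median of 0.46, and 1 had an adjusted p under 0.05. None of the tested markers of leukocytes (7), neutrophils (3), adipocytes (2) or ovary (3) passed in limma, and 4 of the leukocyte, 0 of the neutrophil, 1 of the adipocyte and 0 of the ovary markers had an unadjusted p under 0.05. *Lep*, *Plin1* and *Cidec* of the adipocyte list were not well above background on any array, while *Adipoq* was so on 1 Sox17f/f and 2 Sox17ed/ed arrays and *Fabp4* on all 6. *Amh*, *Cyp19a1*, *Hsd3b1* and *Lhcgr* of the ovary list were at background on every array, while *Star*, *Inha* and *Foxl2* were well above it on all 6. *Alb* and *Apoa1* of the liver list were at background throughout, and both tested genes of that list, *Serpina1a* and *Ttr*, fell. The log2 fold change was -3.26 for *Serpina1a* and -7.63 for *Ttr*. *Ttr* was not well above background on any Sox17ed/ed array, so the size of its fall is uncertain. The part of cell makeup in the changes of *Igfbp5* and of the pathway genes was not tested.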

How the data were processed

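Whole-uterus RNA of 3 Sox17f/f and 3 Sox17ed/ed mice was read on 6 Agilent arrays of 1 colour, grouped by genotype as in the sample titles. Scanner files of every array and a table of processed values were deposited by the authors. The deposited intensity is the processed signal, from which Feature Extraction (11.0.1.1 in the file headers, 9.1 in the submitters' processing notes) had subtracted the background and removed trends within the array, without normalization between arrays. The table was within 0.191% of the mean processed signal per probe. Subtracting background makes dim values uncertain on a log scale.

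Control spots (3671 of 62976) and 169 to 302 outlier spots per array were left out, and 0 spots were saturated. Log2 signals were quantile normalized, as in the study's methods, and averaged over the spots of a probe. Probes were kept if well above background on at least 3 of 6 arrays and measured on all of them. Of 55681 probes, 26582 were matched by accession to RefSeq genes (GRCm38.p6, used for names, neighbours and promoter windows, since the array design is on another build). The probe of highest mean signal stood for a gene, which left 14790 genes, 10891 of them with 1 tested probe. Differences were tested with limma 3.58.1 (lmFit, eBayes; R 4.3.3), and p-values were adjusted by Benjamini-Hochberg across the genes tested. Differences between probes of a gene were tested with exact permutation tests, two-sided. Plots were made with matplotlib 3.10.9 in Python 3.11.15. The steps were tested on simulated data. Precision is limited by the number of arrays, 3 in a group. The labels name 3 biological samples per genotype.

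The members and lists were chosen with earlier results of these data known. Named were all members with every probe, *Sox17*, each pathway gene past the thresholds, and defining marker genes at background. Other pathway genes and markers with values (*Adam12*, *Irs1*, *Irs2*, *Insr*, *Insrr*, *Igf2bp2*, *Stat5a*, *Ghr*, *Tsc1*, *Mtor*, *Akt1*, *Stc1*, *Krt19*, *Cldn3*, *Wt1*, *Upk3b*, *Upk1b*, *Lrrn4*, *Msln*, *Adipoq*, *Fabp4*, *Star*, *Inha*, *Foxl2*, *Serpina1a*, *Ttr*) were picked with their values seen. Replicate numbers showed no sign of pairing the samples. Deviations of same-numbered arrays correlated at 0.06, -0.11 and 0.00, and those of arrays with different numbers at -0.08 to 0.08. With 3 arrays in a group this cannot exclude a pairing. Alternatives were the 75th percentile shift, normexp with an offset of 50 (on median spot signals, since the files hold no mean signal), the filters, the mean of probes, the deposited values, an intensity trend, the replicate block, other thresholds and each array left out. The slide line as a block could not be fitted, since each genotype lay in its own line.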

Additional observations from a re-analysis of the deposited data

How the results depend on the processing

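*Igfbp5* kept its direction and its call under every alternative run, and no member passed as lower in any. The number of members past the thresholds was 2 instead of 1 (2 higher), through *Igfbp2*, with the 75th percentile shift (log2 fold change 0.82), when every array had to be well above background (0.85) and with an intensity trend in the variance (0.85). With each array left out it was 1 to 2, *Igfbp2* ranging from 0.63 to 1.004. The signs of 3 members near 0 turned: *Igf1* (-0.0085 with the 75th percentile shift, -0.019 with the mean of probes), *Igf2r* (-0.016 with the shift, -0.025 to 0.058 over the arrays left out) and *Igfbp6* (0.0056 with the deposited values, -0.043 to 0.051 over the arrays left out). The cause was not tested. Of the pathway genes, 5 to 8 passed with each array left out (2 to 4 higher, 3 to 5 lower), 5 (1 higher, 4 lower) after normexp background correction, 1 (0 higher, 1 lower) at a fold threshold of 2, and 14 (8 higher, 6 lower) at an adjusted p under 0.05 with no fold threshold. Over all genes 814 passed at a fold of 2 (395 higher, 419 lower), 2805 at that adjusted p (1500 lower), and 1663 to 2026 with each array left out. The difference between *Igf1* probes A_55_P2031631 and A_55_P2085984 shrank to 0.00022 after normexp background correction. With the replicate number as a block, which the pairing check does not favour, *Igfbp5* was 1.52 (limma adjusted p = 0.00399), 1795 genes passed, and no call of a member or pathway gene changed. *Igf2* has no value with the filter on all 6 arrays. Members dim on the array, *Igf2*, *Igfbp1* and *Igfbp2*, are limited by signal over background.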
